A study of Mus musculus with 15 samples.

Results

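The cells described here are those of control mouse embryos that carried RNA of the *Mesp1* lineage reporter Ai14, divided by whether they also carried RNA of a second reporter, the *Smarcd3*-F6::eGFP transgene. They were taken from 10 control embryos. Cells were kept with less than 10% mitochondrial unique molecular identifiers (UMIs, each the count of a single captured RNA molecule), fewer than 50000 UMIs and 200 to 7000 genes, and a cell with at least 1 Ai14 UMI was called Ai14-positive. Of 64852 kept cells of these embryos, 11433 were Ai14-positive, and of those 3582 (31.3%) had at least 1 eGFP UMI and 7851 had 0. The series as a whole holds 93701 kept cells.

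The series profiled whole embryos by single-cell RNA sequencing from the 5′ ends of transcripts, in 15 libraries of 1 embryo each, 12 of them controls and 3 *Mesp1* KO. All used embryos were on a C57BL/6J background and had at least 1 working copy of *Mesp1*, with *Rosa26R*-Ai14 and *Hipp11*-*Smarcd3*-F6::eGFP. The study counts both *Mesp1* Cre/+ and *Mesp1* +/+ embryos as controls. Ai14 makes a red fluorescent protein once Cre from the *Mesp1* locus has acted, so it needs a Cre allele. A control that makes Ai14 is therefore *Mesp1* Cre/+. Ai14 marks descendants as well as cells that still express *Mesp1*. The F6 transgene places a *Smarcd3* enhancer and a minimal heat shock promoter, *Hsp68*, before nuclear eGFP at the *Hipp11* locus, so eGFP RNA reports the enhancer at the time of capture and not ancestry. The embryos were screened for red and green fluorescence before dissociation, and the genotype of each single embryo was not used here. Early embryos were E6.0 replicates 1 to 3, late E6.0 replicate 1 and E6.5 replicate 1. Middle embryos were late E6.5 replicate 1 and E7.0 replicate 1. Late embryos were late E7.5 replicate 2 and E7.75 replicates 1 and 2. By the library prefixes, early embryos came from experiments 6, 7 and 8, middle ones from 7 and late ones from 4, 5 and 7. Stage and experiment are thus partly tied, and a difference between stages cannot be fully told apart from one between experiments. The controls early E7.5 replicate 1 and late E7.5 replicate 1 were left out as embryos without the Ai14 reporter, and *Mesp1* KO embryos were not used.

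MESP1 is a bHLH transcription factor made briefly in mesoderm as it leaves the primitive streak, and its descendants include the heart, the vessels, part of the blood and the extra-embryonic mesoderm, and mesoderm of the head. Within that lineage the first heart field gives the left ventricle and much of the atria and differentiates first, while the second heart field differentiates later. SMARCD3, also called BAF60C, is a subunit of the BAF chromatin remodelling complex that is enriched in the heart, and the F6 enhancer is known to mark cardiac precursors before they express the later cardiac genes.

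Promoters are shown for 4 contraction genes, since the late eGFP-positive cells stood out most by genes of this kind. Of 26 promoter windows of the sarcomere and contraction list (the 250 bases before each RefSeq start, GRCm38.p6), 4 held a CArG box (15.4%), the site known to bind serum response factor, whose letters are CC and GG with 6 bases between them that are each A or T. Each motif was searched on both strands. It was in 22 of 363 windows of genes higher in late eGFP-positive cells (6.06%), in 3 of 273 windows of genes lower there (1.10%), in 145 of 11290 windows of all tested genes (1.28%) and in 482 of 32851 windows of the table (1.47%). The letters CTA and TAG with any 4 bases between them, a loose stand-in for a MEF2 site, were in 3.86%, 1.10%, 2.59% and 3.20% of the same 4 groups. GATAA was in 19.0%, 20.1%, 14.6% and 22.6%. Of the 26 sarcomere and contraction windows, 1 held the loose MEF2 letters (3.85%) and 8 held GATAA (30.8%). A match is a description of the letters only. The windows shown run from 250 to 36 bases before the start, 5′ to 3′ on the gene's strand, with the CArG box in capitals, and no exon of GENCODE M21 lies in them. The box ends 38 bases before the start of *Actc1* (cardiac alpha-actin), 76 before that of *Myl3* (ventricular myosin light chain), 52 before that of *Myl7* (atrial myosin light chain) and 153 before 1 of the 4 RefSeq starts of *Nebl* (nebulette, a Z-disc protein), whose other 3 windows held none.
Actc1 (chr2:114052911-114053125, minus strand): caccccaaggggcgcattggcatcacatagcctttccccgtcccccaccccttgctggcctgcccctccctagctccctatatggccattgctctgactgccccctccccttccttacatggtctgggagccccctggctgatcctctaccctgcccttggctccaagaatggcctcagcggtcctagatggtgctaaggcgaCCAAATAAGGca
Myl3 (chr9:110763428-110763642, plus strand): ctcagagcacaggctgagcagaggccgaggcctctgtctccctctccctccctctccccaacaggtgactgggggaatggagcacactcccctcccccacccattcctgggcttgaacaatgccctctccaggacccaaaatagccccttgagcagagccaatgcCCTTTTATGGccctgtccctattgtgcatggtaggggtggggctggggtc
Myl7 (chr11:5898818-5899032, minus strand): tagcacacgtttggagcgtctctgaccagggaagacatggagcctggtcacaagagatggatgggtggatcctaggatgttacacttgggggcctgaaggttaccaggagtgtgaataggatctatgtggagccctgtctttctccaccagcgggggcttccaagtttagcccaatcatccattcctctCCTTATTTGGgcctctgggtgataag
Nebl (chr2:17462892-17463106, minus strand): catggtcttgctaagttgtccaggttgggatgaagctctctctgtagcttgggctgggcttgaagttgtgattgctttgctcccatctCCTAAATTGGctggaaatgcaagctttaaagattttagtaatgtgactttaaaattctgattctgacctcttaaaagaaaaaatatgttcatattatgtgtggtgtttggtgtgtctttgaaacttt

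Across the 10 embryos the number of Ai14-positive cells ran from 48 in E6.0 replicate 3 to 4454 in late E7.5 replicate 2, and the smaller side held 21 to 1456 cells. The share of Ai14-positive cells with eGFP was 17.0%, 37.9%, 43.8%, 30.5% and 27.6% in the 5 early embryos, in the order given above. It was 24.7% and 30.4% in the middle embryos and 32.7%, 9.06% and 37.4% in the late ones. The exact 95% interval was 29.5% to 58.8% in E6.0 replicate 3 and 35.8% to 39.1% in E7.75 replicate 2, so most early shares were loosely fixed and the late ones tightly. Among Ai14-negative cells of the same embryos 2.23% to 7.04% had an eGFP UMI. The cells were chosen by these reporter values, which are given without a test.

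**Figure D1:**
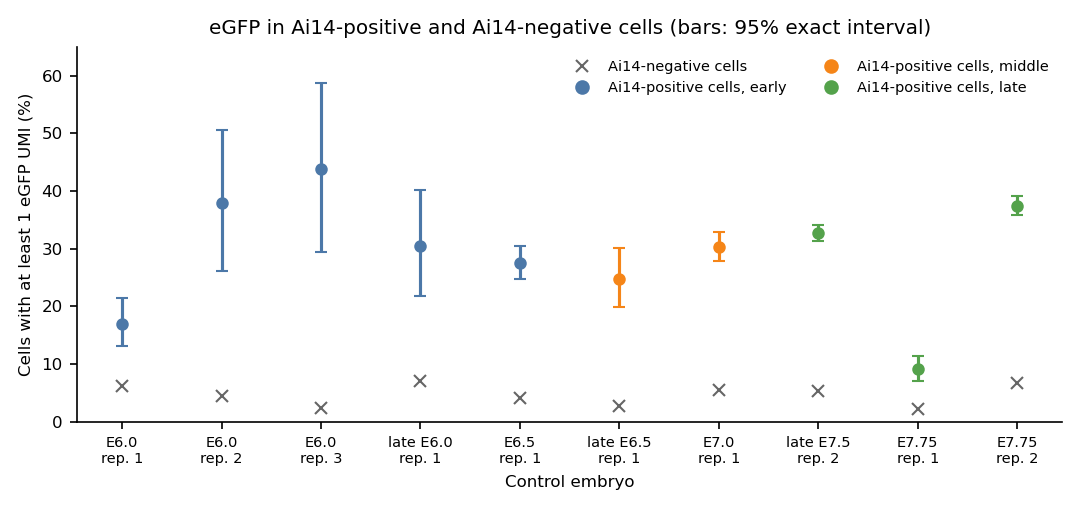
Share of cells with at least 1 eGFP UMI (y axis, percent) in each of the 10 embryos (x axis), among Ai14-positive and among Ai14-negative cells, with exact 95% intervals that cover counting error only. Ai14-positive cells sit between 9.06% and 43.8%, and Ai14-negative cells between 2.23% and 7.04%.

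Both reporters were read at the edge of detection. Of the eGFP-positive cells, 2313 (64.6%) had a single eGFP UMI and 1269 had 2 or more, and the highest count in a cell was 14. Of the Ai14-positive cells, 5739 (50.2%) had a single Ai14 UMI. In the 2 control embryos without the reporter, 2.70% and 2.44% of cells still had an Ai14 UMI, and 0.307% and 0.0887% had 2 or more. Against this the Ai14-positive share was 14% to 24.2% in 9 of the 10 embryos and 4.67% in E7.75 replicate 1. The share with 2 or more Ai14 UMIs was 6.95% to 16% in those 9 and 0.403% in E7.75 replicate 1, so the Ai14-positive cells of that embryo are hard to tell from background. Cells with at least 2% of their UMIs from 8 visceral endoderm genes, a tissue outside the *Mesp1* lineage, had an Ai14 UMI in 2.02% and an eGFP UMI in 5.76% of 3805 cells, with medians of 6719 to 39338 UMIs per cell by embryo against 5145 to 42050.5 in Ai14-positive cells. By embryo that eGFP share was 0% to 8.80%, beside 2.23% to 7.04% among Ai14-negative cells. Libraries shared few cell barcodes, at most 3.53% of the smaller library over 45 pairs, and 70 Ai14-positive barcodes were shared in all.

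Depth moved with the split. The 10 libraries held 13058356 to 379177866 UMIs, and in E7.75 replicate 1 the median Ai14-positive cell had 6049 UMIs on the eGFP-positive and 5050.5 on the eGFP-negative side, against 28785 to 45232 and 23658.5 to 39490 in the other embryos. There 62 of the 63 eGFP-positive cells had a single eGFP UMI and 635 of 695 Ai14-positive cells a single Ai14 UMI, so the late levels of the leading genes are given embryo by embryo. In every embryo the eGFP-positive cells were the deeper ones, by a mean ratio of medians of 1.20 ± 0.0546 (SD, n = 10; range 1.10 to 1.31). The sides were defined by detecting a UMI, a measure that is not independent of depth, so the ratio is given without a test, and how much of it comes from detection was not tested. Cells with at least 2000 UMIs were also thinned to 2000 UMIs, shallower ones were left out, and both reporters were read again. By embryo, eGFP was then seen in 0% to 5.78% of Ai14-positive and 0.355% to 1.83% of Ai14-negative cells. Median mitochondrial shares were 1.58% to 2.20% and 1.53% to 1.94%. Cells matched on depth were also compared, and their late values are given with those of the other choices of cells.

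For each embryo the counts of eGFP-positive and of eGFP-negative cells were summed and compared within the embryo by edgeR's quasi-likelihood test, so the embryos are the replicates. Levels are counts per 1000000 summed UMIs (CPM), and a difference is the log2 fold change of eGFP-positive over eGFP-negative cells with its standard error (SE) and a Benjamini-Hochberg adjusted p, called below 0.05. Over all stages 763 of 12982 tested genes were higher (5.88%) and 917 lower (7.06%) in eGFP-positive cells, 151 and 228 of them in every one of the 10 embryos. Early embryos gave 252 higher (1.94%) and 419 lower (3.23%), middle embryos 217 (1.67%) and 297 (2.29%), and late embryos 374 (2.88%) and 314 (2.42%). The median over all tested genes lay between -0.01 and 0.00 in each. DESeq2 called 180 late genes, 125 higher (0.963%) and 55 lower (0.424%), and 260 middle ones. Without late E7.5 replicate 2 the late count of 688 fell to 109 and without E7.75 replicate 2 to 210, without E7.0 replicate 1 the middle count of 514 fell to 65, and without E6.5 replicate 1 the early count of 671 fell to 352. Without the shallow E7.75 replicate 1 the late count was 706.

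*Smarcd3*, the gene the enhancer was taken from, was higher in eGFP-positive cells. In early embryos it was at 0, 1.86, 1.26, 12.2 and 26.6 CPM in eGFP-positive cells and at 0.146, 1.33, 0, 2.50 and 12.3 CPM in eGFP-negative cells. In middle embryos it was at 11.9 and 46.5 CPM against 5.42 and 19.7 CPM. In late embryos it was at 24.6, 29.5 and 90.7 CPM against 7.01, 14.7 and 36.9 CPM. The eGFP-positive side was the higher in 9 of 10 embryos, and the exception, E6.0 replicate 1, had almost no *Smarcd3* on either side. E6.0 replicates 2 and 3 were near the floor as well, at 1.86 against 1.33 and 1.26 against 0 CPM. The early difference thus rests mostly on late E6.0 replicate 1 and E6.5 replicate 1. The difference was 1.36 ± 0.09 over all stages (adjusted p = 6.02e-09), 1.19 ± 0.19 early, 1.21 ± 0.16 middle and 1.48 ± 0.11 late, with each stage past the threshold. The early call was not made with at least 2 Ai14 UMIs or among cells matched by state, as set out below. The middle call was not made without E7.0 replicate 1. *Smarcd3* lies at chr5:24590818-24624411 on the minus strand (GENCODE M21, mm10).

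**Figure D2:**
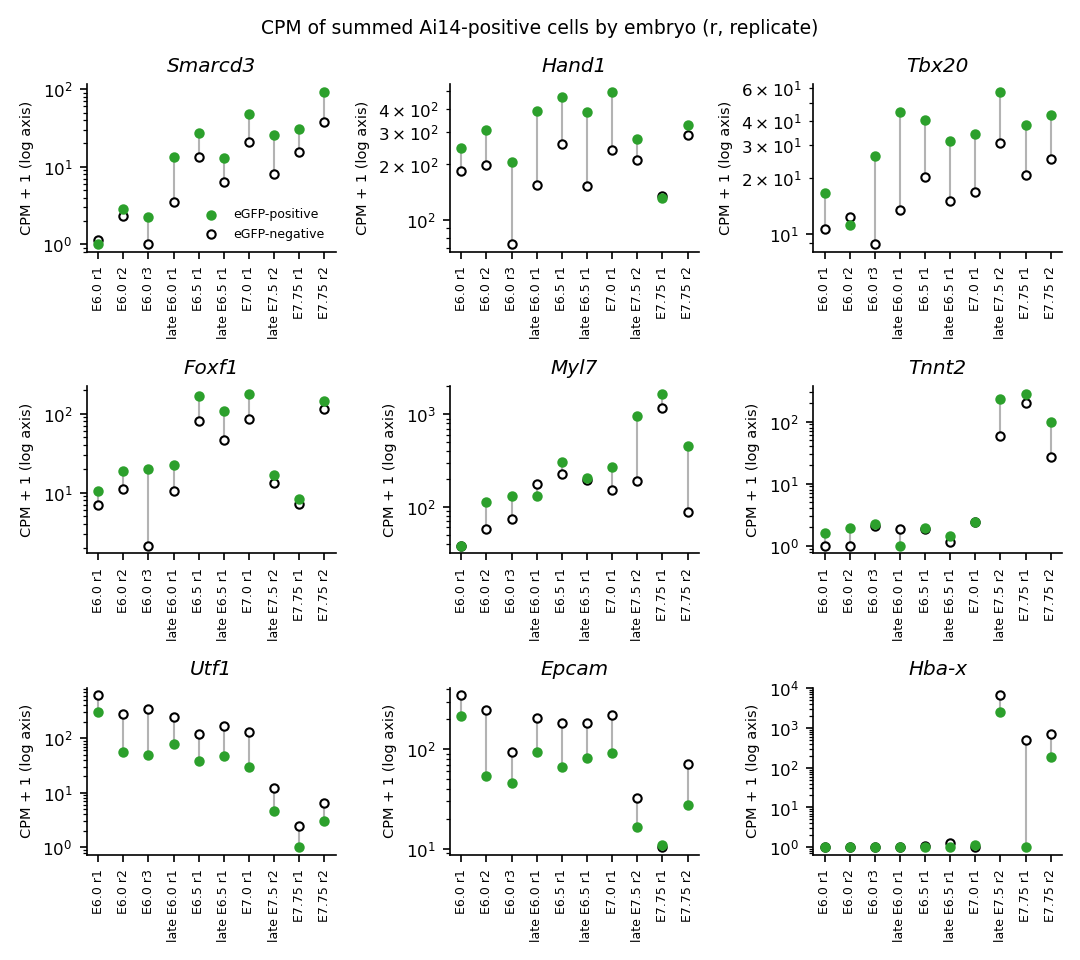
Level of 9 genes (y axis, CPM + 1 on a log axis) in eGFP-positive (green) and eGFP-negative (open) Ai14-positive cells of each of the 10 embryos (x axis). *Tbx20* rises above its partner in 9 of 10 embryos, *Utf1* lies below it in 10 of 10, and *Tnnt2* and *Hba-x* reach more than a few CPM in late embryos only.

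Cardiac transcription factors were higher as a group. Of 12 in the list, 11 were higher and 0 lower over all stages, with a median difference of 1.0. The list counts *Smarcd3*, a BAF subunit and the gene of the enhancer, among the factors. It is among those called over all stages and at each stage. Early embryos had 6 higher (*Tbx20*, *Hand1*, *Hand2*, *Gata4*, *Isl1* and *Smarcd3*), middle embryos 8 and late embryos 10, with medians of 0.74, 0.90 and 0.88. Without E7.0 replicate 1 the middle count was 1 and by DESeq2 4, and without E6.5 replicate 1 the early count was 3. The exception over all stages was *Hopx*, a homeodomain-only protein of maturing cardiac progenitors, at -0.33 (adjusted p = 0.266). Their summed level was 528 ± 139 against 315 ± 63.8 CPM early (SD, n = 5) and 667 ± 177 against 433 ± 72.5 CPM late (SD, n = 3), beside 102 ± 5.58 and 182 ± 14.9 CPM in cells with neither reporter. Most of the early sum on both sides of the split was *Hand1*, which is also in the lateral plate list and is given by embryo below.

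*Tbx20*, a T-box factor of the heart fields, was at 10.2 to 56.1 CPM in eGFP-positive cells (median over embryos 35.1) and 7.82 to 29.7 CPM in eGFP-negative cells (median 14.9). It was higher in 9 of 10 embryos and differed by 0.96 ± 0.07 (adjusted p = 1.08e-07), with 1.07 ± 0.14 early and 0.84 ± 0.10 late. *Hand2*, a bHLH factor needed for right ventricle growth, differed by 1.05 ± 0.10, *Gata5* by 1.39 ± 0.11, *Gata4* by 0.64 ± 0.07 and *Gata6* by 0.60 ± 0.09, and these GATA factors drive endoderm as well as cardiac genes. *Isl1*, the LIM homeodomain factor of the second heart field, was higher in 10 of 10 embryos, by 0.51 ± 0.08 (adjusted p = 0.000193).

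*Hand1*, a bHLH factor of the first heart field and the extra-embryonic mesoderm, had a smaller difference in late than in early embryos. In early eGFP-positive cells it was at 244, 307, 206, 388 and 463 CPM against 184, 198, 72.6, 153 and 259 CPM, higher in each of the 5. The late levels were 274, 130 and 327 CPM against 211, 134 and 289 CPM, so one late embryo had no excess. The difference was 0.84 ± 0.10 early (adjusted p = 1.13e-05), 1.18 ± 0.13 middle and 0.20 ± 0.11 late (adjusted p = 0.463), and the late minus early difference of -0.64 ± 0.15 passed the threshold (adjusted p = 0.0404). Over all genes 119 passed for late minus early, 85 higher (0.655%) and 34 lower (0.262%), which fell to 9 without late E7.5 replicate 2 and to 37 without E7.75 replicate 2.

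3 regulators of the differentiating heart were called late and not early. *Nkx2-5*, a homeodomain factor, was at 56.0, 36.9 and 51.6 CPM in late eGFP-positive cells against 19.5, 28.4 and 13.2 CPM, and at 5.98 CPM or less on both sides before. *Tbx5*, a T-box factor of the first heart field, was at 16.3, 7.38 and 11.6 CPM against 3.89, 7.04 and 1.66 CPM. *Mef2c*, a MADS box factor, was at 38.6, 34.5 and 34.4 CPM against 12.9, 16.4 and 6.24 CPM. The late groups did not overlap for *Nkx2-5*, *Tbx5* and *Mef2c*, and the gap was smallest in E7.75 replicate 1. For *Tbx5* the groups were apart only by 7.38 against 7.04 CPM in that embryo. Its eGFP-positive sum held 406229 UMIs, so this gap rests on very few *Tbx5* UMIs. How many of all tested genes show no overlap is not given here, so this is a description only, here and for other genes. Late differences were 1.62 ± 0.14, 2.23 ± 0.22 and 1.90 ± 0.15 (adjusted p = 8.56e-08, 5.42e-07 and 7.83e-08). Their late minus early differences did not pass the threshold (adjusted p = 0.232 for *Nkx2-5*, 0.633 for *Tbx5* and 0.625 for *Mef2c*). *Mesp1* itself was at 306 to 617 CPM on the early eGFP-positive side and 217 to 472 CPM on the other, and its difference was 0.09 ± 0.09 over all stages (adjusted p = 0.633) and 0.31 ± 0.10 early (adjusted p = 0.074). The early difference of *Mesp1* passed the threshold among depth-matched cells (0.45 ± 0.11, adjusted p = 0.021) and without E6.5 replicate 1 (0.44 ± 0.11, adjusted p = 0.0233), and it was -0.09 among state-matched cells and -0.14 with at least 2 Ai14 UMIs.

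Genes of the contractile machinery were higher in late eGFP-positive cells, 21 of 21 tested in a list of 22, with a median of 1.77. DESeq2 called 7 of them late (median 1.47, 16 at an unadjusted p under 0.05), and without late E7.5 replicate 2 edgeR called 10. In early embryos edgeR called 0 of the 21 (median 0.37), with 3 at an unadjusted p under 0.05 and 1 called by DESeq2, and in middle embryos 2 were called, *Tnni1* (slow skeletal troponin I, the early cardiac form) and *Nexn* (an actin filament binding protein). The summed level of the list was 2344, 4832 and 5117 CPM from the lowest to the highest late embryo in eGFP-positive cells and 1141, 1627 and 3837 CPM in eGFP-negative cells, so the groups overlapped across embryos while each embryo differed in the same direction.

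*Tnnt2*, cardiac troponin T, was at 233, 281 and 97.6 CPM in late eGFP-positive cells against 57.9, 201 and 26.3 CPM, a difference of 1.61 ± 0.16 (adjusted p = 7.06e-07). *Myl7* was at 962, 1674 and 455 CPM against 191, 1183 and 87.4 CPM, a difference of 1.76 ± 0.25 (adjusted p = 4.11e-05). *Actc1* was at 725, 318 and 148 CPM against 139, 275 and 19.6 CPM, a difference of 2.06 ± 0.27 (adjusted p = 2.22e-05). In all 3 genes the second pair of values, from the shallow E7.75 replicate 1, had the smallest ratio. *Ttn*, which encodes the giant spring protein titin, differed by 2.33 ± 0.25 and *Myl4*, the embryonic atrial light chain, by 2.10 ± 0.25. *Myh6*, alpha myosin heavy chain, was at 65, 39.4 and 6.39 CPM against 10.6, 63.6 and 0.501 CPM, so E7.75 replicate 1 went the other way, and its late difference was 2.19 ± 0.31 (adjusted p = 7.75e-05). *Myl3* and *Nebl*, whose promoter windows were given with the CArG box, differed by 1.77 and 1.83. *Myl7* was the only gene of the list with a late minus early difference past the threshold, 1.47 ± 0.35 (adjusted p = 0.0472). Among all genes the largest late excesses that held in every late embryo were *Lrrc2* (3.09 ± 0.41), *Lrrc10* (2.79 ± 0.28), a cardiac-enriched leucine-rich repeat gene, *Alpk2* (2.65 ± 0.26), *Mybpc3* (2.65 ± 0.32), cardiac myosin binding protein C, and *Sphkap* (2.62 ± 0.29). *Mybpc3* was at 7.71, 7.38 and 1.18 CPM against 1.23, 4.11 and 0.0401 CPM.

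First heart field genes were higher with them and second heart field genes were mixed. Of the 5 tested first heart field and juxta-cardiac field genes, 5 were higher over all stages (median 1.14), where DESeq2 called 2 (median 0.74), with *Sfrp5* at -0.22, and edgeR without E7.75 replicate 2 called 3. Late, 4 were higher (*Tbx5*, *Sfrp5*, *Mab21l2* and *Bmp2*; median 1.22), and there DESeq2 called 1 and edgeR without late E7.5 replicate 2 called 2. *Sfrp5*, a secreted WNT inhibitor of the first heart field, was at 56.5, 49.2 and 66.1 CPM in late eGFP-positive cells against 23.2, 23.5 and 17.8 CPM. Those groups did not overlap, and the difference was 1.52 ± 0.13 (adjusted p = 1.78e-07). Its early levels were 0 to 2.39 CPM against 0 to 7.09 CPM. Of 11 second heart field genes, 3 were higher (*Isl1*, *Fgf10* and *Wnt2*) and 2 lower (*Fgf8* among them) over all stages, with a median of 0.08, and late 2 were higher and 1 lower, with a median of 0.00. *Wnt2* was higher in 10 of 10 embryos, by 0.91 ± 0.16.

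Lateral plate and extra-embryonic mesoderm genes were mostly higher in eGFP-positive cells, and the difference between stages was not tested for the list. Of 11 genes, 10 were higher over all stages (median 0.69), 8 early (median 0.81), 9 in middle embryos (median 1.02) and 4 late (median 0.35), with 0 of them late without late E7.5 replicate 2 and 1 by DESeq2. *Foxf1*, a forkhead factor of lateral and extra-embryonic mesoderm, was at 9.57, 17.7, 18.8, 21.1 and 169 CPM in early eGFP-positive cells against 6.01, 9.96, 1.12, 9.59 and 79.7 CPM. It was higher in 10 of 10 embryos, by 1.09 ± 0.12 early and 0.34 ± 0.09 late, and that fall of -0.74 ± 0.15 passed the threshold (adjusted p = 0.0157). *Msx2*, a homeodomain target of BMP signalling, *Tbx3*, a T-box repressor, and *Pmp22*, a membrane protein, differed by 0.66, 0.69 and 0.73 and were each higher in 10 of 10 embryos. The summed level of the list was 1026 ± 262 against 575 ± 180 CPM early (SD, n = 5). Of 6 allantois genes edgeR called 0 over all stages (median 0.06), with 0 at an unadjusted p under 0.05 and 0 called by DESeq2.

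Among the genes named for the largest excess in every one of the 10 embryos were *Rbm24* (0.99 ± 0.14), an RNA binding protein of muscle splicing, *Nrp1* (0.97 ± 0.09), a receptor for VEGF and semaphorins, *Crb2* (0.79 ± 0.10), a polarity protein needed for cells to leave the streak, *Daam2* (0.77 ± 0.15), a formin of WNT signalling, *Dok4* (0.76 ± 0.08), a docking protein, and *Smad6* (0.72 ± 0.09), an inhibitor of BMP signalling. *3632451O06Rik* differed by 0.81 ± 0.09. *Nrp1* was at 35.4 to 157 CPM in eGFP-positive cells (median 64.5) and 15.1 to 94.0 CPM in eGFP-negative cells (median 29.4). Early embryos added *Unc5c* (1.27 ± 0.22), a netrin receptor, *Pag1* (1.33 ± 0.26), *Zfp438* (1.40 ± 0.36) and *Tmem119* (1.20 ± 0.16), and middle embryos *Popdc2* (1.91 ± 0.39), a cAMP binding membrane protein of the heart, *Frem1* (1.84 ± 0.33), *Tbx2* (1.84 ± 0.44) and *Zar1* (1.80 ± 0.37). In all 3 stages 60 genes were higher and 75 lower. The 72 genes higher both early and late were 28.6% of the early and 19.3% of the late ones.

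Epiblast and pluripotency genes were lower in eGFP-positive cells at every stage. Of 11 tested, 11 were lower over all stages (median -1.20), 11 early (median -1.28), 11 in middle embryos (median -1.39) and 8 late (median -0.85). The late count was 2 by DESeq2, 2 without E7.75 replicate 2 and 3 without late E7.5 replicate 2. *Utf1*, a chromatin factor of the epiblast, was at 299, 54.9, 49.0, 77.0 and 37.4 CPM in early eGFP-positive cells against 619, 283, 339, 245 and 118 CPM. In late embryos it had dropped to 3.67, 0 and 2.07 CPM against 11.4, 1.47 and 5.41 CPM. It was lower in 10 of 10 embryos, by -1.77 ± 0.11 (adjusted p = 5.98e-09). *Pou5f1*, the core pluripotency factor OCT4, differed by -0.60 ± 0.06. *Epcam* and *Cdh1*, the epithelial adhesion molecules lost when mesoderm leaves the epithelium, differed by -1.25 ± 0.08 and -1.34 ± 0.15, and the tight junction genes *Cldn3* and *Cldn4* by -2.03 ± 0.28 and -1.56 ± 0.19. *Fabp3* (-1.63 ± 0.25), a fatty acid binding protein, *Pga5* (-1.92 ± 0.39), *Mageb16* (-1.57 ± 0.31), *Tmem54* (-1.55 ± 0.15), *Gpx2* (-1.52 ± 0.20) and *Thpo* (-1.47 ± 0.26) were lower in every embryo.

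The summed level of the epiblast list was 1357 ± 815 CPM in early eGFP-positive cells, 2404 ± 855 CPM in early eGFP-negative Ai14-positive cells and 3277 ± 900 CPM in early cells with neither reporter (SD, n = 5). The eGFP-negative side thus lay between the eGFP-positive side and the cells with neither reporter, which hold the other tissues and also lineage cells whose Ai14 RNA was not captured. It lay between them as well early for nascent mesoderm genes (1480 ± 150, 1155 ± 246 and 421 ± 99.0 CPM). In sums of this kind fewer cells of a type and less RNA per cell cannot be told apart, and the cells carrying these genes were not counted. Cells that were Ai14-positive by background could not be set apart one by one. Visceral and parietal endoderm genes were at 291 ± 195, 548 ± 289 and 5918 ± 1748 CPM in the same early groups, so their level on either side was far below that in cells with neither reporter. Over all stages 2 of those 12 genes were called lower (*Afp* and *Srgn*; median -0.66), and 8 were once the cells with the highest doublet scores were left out. Those cells were 16% to 19.0% of late eGFP-positive and 14.9% to 20% of late eGFP-negative cells.

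Primitive streak genes were lower in part. Over all stages 4 of 12 were lower (*T*, *Fgf8*, *Gsc* and *Sp5*; median -0.14) and 0 higher, and in middle embryos 5 were lower (*T*, *Mixl1*, *Eomes*, *Nodal* and *Sp5*; median -0.52). DESeq2 called 0 of the middle ones, and so did edgeR without E7.0 replicate 1. *T*, the brachyury factor of the streak, was at 117 and 208 CPM in middle eGFP-positive cells against 142 and 388 CPM, and it differed by -0.67 ± 0.18 there and by -0.26 ± 0.14 early (adjusted p = 0.361). *Eomes*, a T-box factor upstream of *Mesp1*, and *Mixl1*, a homeodomain factor of the streak, differed by -0.54 and -0.55 in middle embryos and by 0.11 and 0.13 early, where neither was called. Nascent mesoderm genes included 5 of 12 higher over all stages (*Pdgfra*, *Pdgfrb*, *Cdh2*, *Zeb2* and *Cfc1*; median 0.17). *Pdgfra*, a growth factor receptor of early mesoderm, was higher in 10 of 10 embryos, by 0.49 ± 0.07, while *Zeb2* and *Pdgfrb* were at 0.00 and -0.01 among cells matched by state.

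Genes of the definitive endoderm, node and notochord were lower, 9 of 9 over all stages (median -1.46) and 7 early (median -1.97). *Foxa2*, a forkhead factor of endoderm and node, was at 5.39, 0, 0, 0 and 1.35 CPM in early eGFP-positive cells against 14.9, 25.9, 21.2, 21.3 and 5.79 CPM. Those groups did not overlap, and *Foxa2* was lower in 10 of 10 embryos, by -1.51 ± 0.26 over all stages (adjusted p = 0.000593). *Foxj1*, the factor of motile cilia made in the node, was at 0 to 0.810 CPM on the early eGFP-positive side against 0.664 to 21.3 CPM, and it differed by -5.09 ± 0.58 early, -4.00 ± 0.38 in middle embryos and -0.40 ± 0.32 late (adjusted p = 0.688). *Ccno*, which acts in multiciliated cells, differed by -4.15 ± 0.51 early and *Noto*, a node homeodomain factor, by -4.30 ± 0.52 in middle embryos. The early eGFP-positive values of *Foxj1* rest on 1 UMI in late E6.0 replicate 1 and 2 in E6.5 replicate 1, with 0 in the other 3 embryos. Late, 5 of the 9 were called, 0 by DESeq2 and 1 without late E7.5 replicate 2 or without E7.75 replicate 2.

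Neural and surface ectoderm genes were lower in 6 of 8 cases over all stages (median -1.29) and extra-embryonic ectoderm genes in 5 of 7 (*Elf5*, *Rhox5*, *Rhox6*, *Tfap2c* and *Wfdc2*; median -1.20), the exception among the latter being *Hand1*, higher and shared with the mesoderm lists. The middle embryos had *1700016K19Rik*, *1110017D15Rik* and *2410012M07Rik* called lower, on 0 and 1, 0 and 2, and 1 and 0 UMIs in the eGFP-positive sums.

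**Figure D3:**
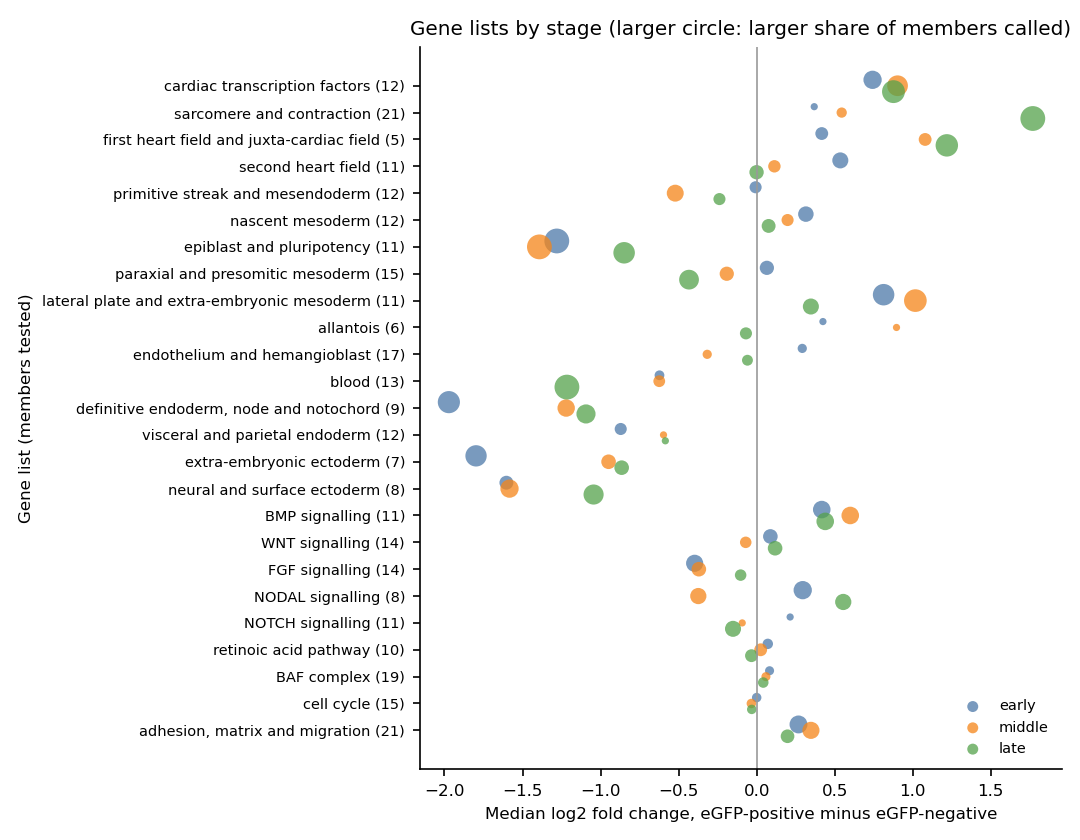
Median log2 fold change (x axis, eGFP-positive over eGFP-negative) of each gene list (rows, with the number of members tested) in early (blue), middle (orange) and late (green) embryos, with a larger circle for a larger share of tested members called. Sarcomere genes go from a median of 0.37 early to 1.77 late, lateral plate genes from 0.81 to 0.35, and epiblast genes are below 0 at each stage.

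Blood genes were lower in late eGFP-positive cells, 13 of 13 tested, with a median of -1.22, and 1 of 13 early. DESeq2 called 1 of the 13 late (median -1.14), and edgeR without late E7.5 replicate 2 called 5. *Hba-x*, the embryonic alpha-like globin, was at 2525 CPM against 6670 CPM in late E7.5 replicate 2, at 0 against 484 CPM in E7.75 replicate 1 and at 188 against 699 CPM in E7.75 replicate 2. The eGFP-positive side was the lower in each of the 3, and the difference was -1.88 ± 0.22 (adjusted p = 1.14e-05). *Hbb-bh1*, an embryonic beta-like globin, was at 3779, 0 and 591 CPM against 9390, 367 and 1934 CPM and differed by -1.72 ± 0.22, and *Hbb-y* differed by -2.03 ± 0.22. The globin genes are close relatives, so reads may be split between them. *Gata1* and *Klf1*, the erythroid transcription factors, differed by -1.22 and -1.35 late. The late summed level of the list was 12.3 to 6583 CPM in eGFP-positive cells and 905 to 16755 CPM in eGFP-negative ones, so it varied more between embryos than between sides. *Erbb3* (-1.95 ± 0.40), a neuregulin receptor, and *Fermt1* (-1.83 ± 0.30), an epithelial integrin activator, were the other genes named as lower late.

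Endothelium and hemangioblast genes were mixed, with *Kdr* higher and *Sox7* lower of 17 over all stages (median -0.04), counts near the shares over all tested genes. Among cells with at least 2 Ai14 UMIs the *Kdr* difference over all stages was -0.03, and among cells matched by state -0.04. *Kdr*, the VEGF receptor of the hemangioblast, differed by 0.66 ± 0.11 early, 0.77 ± 0.15 in middle embryos and 0.00 ± 0.12 late, and late *Tal1* and *Lmo2*, partners in a blood and vessel factor complex, differed by -0.70 and -0.79. These late calls were not made without E7.75 replicate 2, without late E7.5 replicate 2 or among state-matched cells, where edgeR called 0 of the 17 genes with 3 at an unadjusted p under 0.05 in each case, nor by DESeq2, with 0 at an unadjusted p under 0.05. Paraxial and presomitic mesoderm genes were lower in 8 of 15 cases over all stages (median -0.41) and 9 late (median -0.43). The count over all stages was 2 lower and 1 higher by DESeq2 (median -0.21) and 4 lower and 1 higher without E7.75 replicate 2. The late count was 0 by DESeq2 (median -0.48), 1 without late E7.5 replicate 2 and 2 without E7.75 replicate 2. *Tbx6*, the presomitic T-box factor, was at 3.45, 4.92 and 15.6 CPM in late eGFP-positive cells against 6.63, 7.92 and 24.7 CPM and differed by -0.78 ± 0.14. *Meox1*, a somite homeodomain factor, was at 37.7, 29.5 and 57.6 CPM against 46.4, 63.4 and 75.8 CPM and differed by -0.41 ± 0.09.

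Among the signalling lists, BMP genes were higher in 8 of 11 cases over all stages and lower in 0, with a median of 0.51. The ligands *Bmp2*, *Bmp4* and *Bmp5* differed by 0.61, 0.58 and 0.96, the modulator *Bmper* by 0.80, and the feedback inhibitors *Bambi*, *Smad6* and *Smad7* by 0.51, 0.72 and 0.35. *Bambi* was higher in 10 of 10 embryos. FGF genes were lower in 7 of 14 cases and higher in 2, with a median of -0.31. The lower ones were the ligands *Fgf4*, *Fgf5* and *Fgf8* and the pathway's targets *Spry1*, *Dusp6*, *Etv4* and *Etv5*, with *Fgf5* at -1.20 and *Etv4* at -0.48, while the ligand *Fgf10* and the receptor *Fgfr2* were higher.

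WNT genes were mixed, 3 higher (*Wnt5a*, *Sfrp5* and *Nkd1*) and 2 lower (*Wnt3a* and *Wnt8a*) of 14, with a median of 0.11. The canonical ligands *Wnt3a* and *Wnt8a* differed by -1.14 and -0.97 and the non-canonical *Wnt5a* by 0.29, or by -0.04 among cells matched by state. NODAL genes were 2 higher (*Cfc1* and *Foxh1*) and 1 lower (*Cer1*) of 8, with a median of 0.20, and *Cfc1*, a NODAL co-receptor, was higher in 10 of 10 embryos, by 0.62 ± 0.08. Late, the related co-receptor *Tdgf1* was at 17.9, 0 and 2.99 CPM against 3.24, 2.93 and 0.401 CPM, a difference of 2.45 ± 0.23 (adjusted p = 2.34e-07) with E7.75 replicate 1 the other way. *Tdgf1* had been at 247 to 1413 CPM on the early eGFP-positive side, and its late minus early difference was 2.18 ± 0.25 (adjusted p = 0.000178).

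NOTCH genes had 2 of 11 higher (*Notch2* and *Hes1*) and 1 lower (*Dll1*), with a median of 0.04, and retinoic acid genes 2 of 10 higher (*Rarb* and *Rara*) and 2 lower (*Crabp2* among them), with a median of -0.04. *Dll1*, a NOTCH ligand of presomitic mesoderm, differed by -0.89 ± 0.14 late and 0.12 ± 0.17 early, and the late minus early difference passed the threshold (adjusted p = 0.0287), though it was 0.26 with eGFP-positive cells of at least 2 eGFP UMIs. Of 19 BAF complex genes, 4 were higher (*Smarcd3*, *Arid1a*, *Dpf3* and *Pbrm1*; median 0.08), and besides *Smarcd3* the subunit with the largest difference was *Dpf3*, a histone reader of the complex in heart and muscle, at 0.73 ± 0.11. Cell cycle genes had 2 of 15 higher (*Mki67* and *Cdkn1c*; median -0.02). Of 21 adhesion, matrix and migration genes, 10 were higher and 2 lower, with a median of 0.30. *Fn1*, fibronectin, was higher in 10 of 10 embryos, by 0.79 ± 0.06 early and 0.20 ± 0.08 late (late minus early adjusted p = 0.00449), *Col1a1*, a collagen chain, by 0.92 and *Vcan*, a heart jelly proteoglycan, by 0.50 over all stages, while the chemokine *Cxcl12* was lower in 10 of 10, by -1.10.

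*Hspa1a*, an inducible heat shock gene, was higher in 8 of 10 embryos, by 1.47 ± 0.14 (adjusted p = 8.27e-07). It was at 22.8, 49.2 and 22.8 CPM in late eGFP-positive cells against 8.49, 18.2 and 6.30 CPM, with no overlap. Its near copy *Hspa1b*, looked at after the values were seen, was at 1.86 CPM or less on the eGFP-positive side and differed by -0.53 ± 0.25 (adjusted p = 0.184), and the promoter windows of the pair differ at 3 of 250 bases before the start and at 1 of 50 after it. *Hspa1a* and *Hspa1b* are near-identical, so reads may be split between them or left uncounted. The transgene carries a heat shock promoter and the libraries read 5′ ends, and whether its RNA was counted as *Hspa1a* was not tested.

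The eGFP-positive cells also differed among themselves by their number of eGFP UMIs. In the 6 embryos with at least 10 cells in each class, cells with 2 or more eGFP UMIs were compared with cells that had 1, and 330 of 12347 genes were higher (2.67%) and 251 lower (2.03%). The sarcomere list had 21 of 21 higher with a median of 1.73, cardiac transcription factors 10 of 12 (median 0.68), blood genes 9 of 13 lower (median -1.62), paraxial genes 11 of 15 lower and epiblast genes 8 of 11 lower. The genes named for the largest excess were *AC130654.1* (1.47 ± 0.15), *Hspa1a* (1.45 ± 0.10), *Homer2* (1.2 ± 0.15), a synaptic scaffold gene, *Myl7* (1.24 ± 0.24) and *Smarcd3* (1.11 ± 0.09), and those lower were *Utf1* (-2.42 ± 0.34), *Rhd* (-2.12 ± 0.41), *Mpzl2* (-2.05 ± 0.37), *Prss50* (-1.90 ± 0.28) and *2610528J11Rik* (-1.83 ± 0.25).

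At the edge of the rule, the levels of genes already named are given for cells with 0, 1 and 2 or more eGFP UMIs, as a description with no test, since their choice goes far to fix the order. *Smarcd3* averaged 13.8 CPM with 0 UMIs, 23.8 CPM with 1 and 48.6 CPM with 2 or more over those embryos, in that order in 5 of 6. *Myl7* and *Hand1* kept the order in 6 of 6. *Utf1* averaged 119, 47.5 and 3.33 CPM and fell in 6 of 6. *Tnnt2* was at 57.9, 120 and 436 CPM in late E7.5 replicate 2 and at 26.3, 47.3 and 164 CPM in E7.75 replicate 2.

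**Figure D4:**
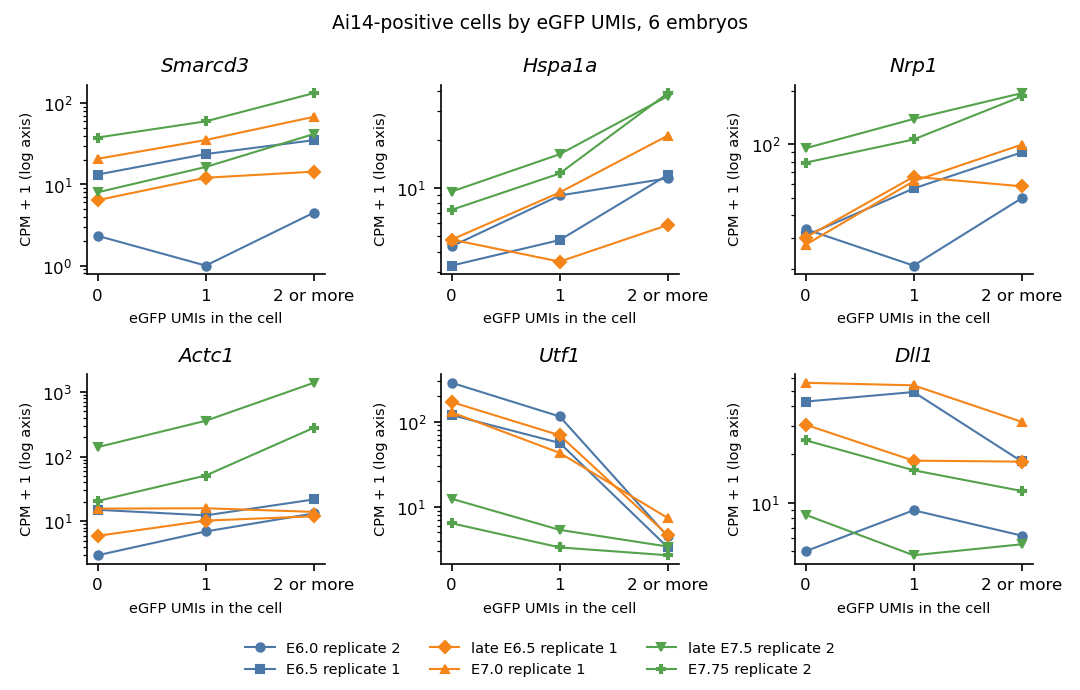
Level of 6 genes (y axis, CPM + 1 on a log axis) in Ai14-positive cells with 0, 1 and 2 or more eGFP UMIs (x axis), with a line for each of the 6 embryos that had at least 10 cells in each class. *Smarcd3* climbs from a mean of 13.8 to 48.6 CPM and *Utf1* drops from 119 to 3.33 CPM.

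Outside the detected lineage the same split gave 434 genes higher (2.95%) and 295 lower (2.0%) of 14726 among Ai14-negative cells of 9 embryos. The difference between the Ai14-positive and the Ai14-negative split was itself past the threshold for 68 genes, 2 higher (0.0136%) and 66 lower (0.448%). The 2 higher were *Lrrn4* (0.69 ± 0.15), a leucine-rich repeat gene, and *Gpc3* (0.50 ± 0.12), a glypican. Among listed genes the lower ones included 6 of 13 blood genes, 5 of 12 epiblast genes, *Kdr*, *Tek* and *Fli1* of the endothelium list and *Hand2* and *Gata5* of the cardiac factors, and *Smarcd3* was at -0.69 ± 0.18 (adjusted p = 0.0866). The eGFP-negative side of the Ai14-negative cells holds the embryo's other tissues, so the partners of the split differ as well as the eGFP-positive cells.

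Cells were also matched by state, each eGFP-positive cell to 1 eGFP-negative cell of its embryo. Distances were taken over 30 principal components from which the listed genes had been held out. Each eGFP-negative cell was used at most once and the summed distance was made smallest, with no limit on a pair's distance. In E6.0 replicate 3 this took 21 of its 27 eGFP-negative cells, so a match need not be close. Late, 167 of 10903 genes were then higher (1.53%) and 33 lower (0.303%), and the early count was 3 (0.0275%). The sarcomere list kept 19 of 20 tested genes higher late (median 1.5), cardiac transcription factors 9 of 12 (median 0.59) and first heart field genes 4 of 5 (median 0.81). The paraxial list had 6 of 15 lower (median -0.34). Of the cardiac transcription factors edgeR called 0 of 12 early among matched cells (median 0.28, with 5 at an unadjusted p under 0.05). In middle embryos it called 1 of 12, *Smarcd3* (median 0.26). Among all Ai14-positive cells the counts were 6 and 8. By contrast 2 of 11 blood genes (median -0.11), 2 of 11 epiblast genes (median -0.37) and 0 of 10 lateral plate genes (median 0.06; 0 at an unadjusted p under 0.05) were called late by edgeR among matched cells. *Smarcd3* differed by 1.08 ± 0.06 late, *Tnnt2* by 1.31 ± 0.07, *Hba-x* by -0.33 ± 0.07 and *Meox1* by -0.49 ± 0.06, each still past the threshold. With depth matched as well, a choice made after seeing the data, *Hba-x* was at -0.01 ± 0.05 (adjusted p = 1.0), and edgeR called 0 of 11 blood genes late (median -0.06; 1 at an unadjusted p under 0.05). That choice did not lower every count. Late, the paraxial list had 9 of 15 lower (median -0.42) and the epiblast list 2 of 11 (median -0.64). Over all stages 5 of 10 lateral plate genes were higher, and of 21 adhesion genes 2 were higher and 1 lower. The share called over all tested genes is not given for this choice of cells, so these counts are a description only.

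Over all stages the same matching left 186 of 10903 genes higher (1.71%) and 57 lower (0.523%), with 6 called in middle embryos (0.0550%), and fewer calls in most other lists. The epiblast list had 5 of 11 lower (median -0.37) and the lateral plate list 2 of 10 higher (*Foxf1* and *Msx2*; median 0.18), with 0 of 10 called early (median 0.28; 5 at an unadjusted p under 0.05) and 2 in middle embryos (median 0.37). Of the endoderm, node and notochord genes 5 could still be tested, and *Hhex* alone was lower (median -0.19), with 0 called early (median -0.07; 1 at an unadjusted p under 0.05). *Hesx1* alone was lower of 3 neural genes, and of 5 extra-embryonic ectoderm genes edgeR called 0 (median -0.19; 2 at an unadjusted p under 0.05). The BMP list had 5 of 11 higher (median 0.16), *Bmp2*, *Bmp5*, *Bmper*, *Bambi* and *Smad6*. The FGF list had 1 of 14 lower, *Fgf5* (median -0.13). Of 21 adhesion, matrix and migration genes edgeR called 0 (median 0.03; 10 at an unadjusted p under 0.05). Calls were left for *T* of the streak list, *Cfc1* of the nascent mesoderm and NODAL lists and *Sfrp5* of the WNT list, while the paraxial list had 8 of 15 lower, as many as among all Ai14-positive cells. Of 5 allantois genes *Cdx4* was lower, a call not made among all Ai14-positive cells.

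With at least 2 Ai14 UMIs asked of each cell, which few cells of embryos without the reporter reached, 271 of 11530 genes were higher late (2.35%) and 177 lower (1.54%). The late values rest on 2 embryos, since E7.75 replicate 1 had 5 eGFP-positive cells of this kind and was left out. Early, 53 genes were called (0.460%), and 1 of 12 cardiac transcription factors was among them (median 0.40). Late, the sarcomere list had 19 of 19 higher (median 2.27) and the blood list 12 of 13 lower (median -1.40), beside 2.07 and -1.21 when E7.75 replicate 1 was left out with no Ai14 change, and late epiblast genes had 1 of 11 lower (median -0.15) against 8 of 11 among all Ai14-positive cells. Over all stages 288 genes were higher (2.50%) and 210 lower (1.82%) in those cells. Of 11 epiblast genes 7 were lower (median -0.55), of 14 FGF genes 3 with *Fgfr2* higher (median -0.23), and of 21 adhesion genes 1 with 2 higher (median 0.11). Of the neural and surface ectoderm genes only 2 could be tested and *Wnt6* was higher, and of 5 extra-embryonic ectoderm genes *Hand1* was higher and 0 were lower. Cells matched on depth gave 315 of 10971 genes higher late (2.87%) and 245 lower (2.23%). Among them the late sarcomere list had 21 of 21 higher (median 1.96), the cardiac transcription factors 10 of 12 (median 0.99), the blood list 11 of 11 lower (median -1.45) and the epiblast list 7 of 11 lower (median -1.0).

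**Figure D5:**
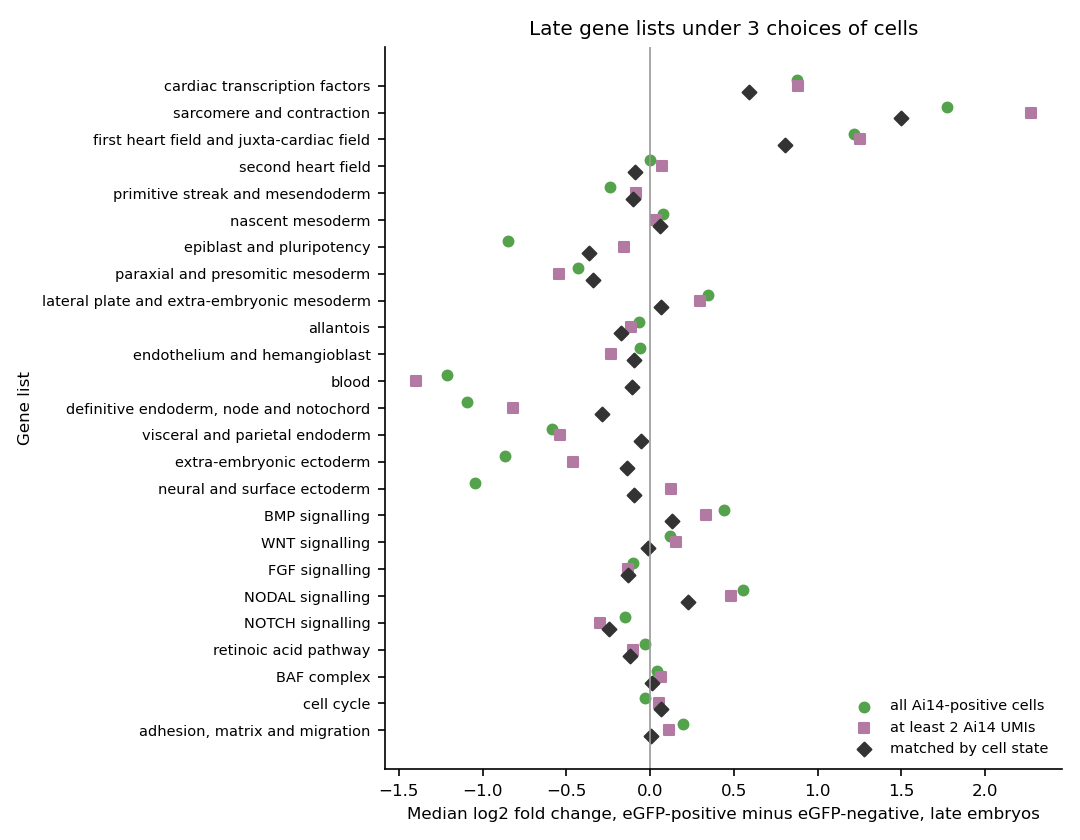
Late median log2 fold change (x axis) of each gene list (rows) in all Ai14-positive cells, in cells with at least 2 Ai14 UMIs (2 late embryos, without E7.75 replicate 1) and in cells matched by state. The sarcomere list lies at 1.77, 2.27 and 1.5, the blood list at -1.22, -1.40 and -0.11, and the epiblast list at -0.85, -0.15 and -0.37.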

How the data were processed

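Whole embryos were dissociated and profiled with the 10x 5′ kit, 1 embryo per library. The authors counted the reads with Cell Ranger 3.0.2 on mm10 with both reporter sequences added (version and build per the submitters' processing notes), and deposited unnormalised UMI counts per gene and barcode, which were used as deposited. Reads were not realigned. Cells were filtered as given in the report, and UMI counts of Ai14-positive cells were summed per embryo and eGFP side (Python 3.11.15, scipy 1.17.1, scanpy 1.11.5). Sums with at least 10 cells were tested with edgeR 4.0.16 in R 4.3.3 (quasi-likelihood test, filterByExpr, TMM), with the embryo as a block and an eGFP effect per stage, and Benjamini-Hochberg adjustment at 0.05 over all genes tested.

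Both sides of a pair come from the same embryo, so the block belongs to the design. Deviations of the paired sums from their stage means correlated at 0.226 to 0.805 in the 8 early and late embryos, and each of the 8 sums was nearest its own embryo. The labels used here do not assign embryos to litters, so p-values measure how the difference between the sides varies across these embryos. The stages shared the same estimate of the spread, because each has few embryos. The SE and p-value of a stage therefore also rest on embryos of the other stages, most of all for the middle embryos. Exact intervals cover counting error only.

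The members and gene lists were chosen with earlier results of these data known. Named genes were those past the threshold with the largest change and the same direction in every embryo (up to 10 a direction over all stages and 5 per stage), up to 5 a direction between eGFP UMI classes with the same condition, up to 5 a direction for the late minus early and the Ai14 differences of effects without it, members of the lists, and genes the study names for these cells. *Hspa1b* was added after its values were seen. *Spin2c*, *Spi1* and *Spink1* were on the lists and not among the measured features. Values of a few named genes are not reported here. State matching used 30 principal components of 2000 variable genes without the listed genes. Doublet scores came from Scrublet, and doublets were kept except in the alternative that leaves out the highest scores, in a number set by the cells of each library.

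On simulated counts for 13194 genes the test recovered 94% of 2-fold and 99% of 4-fold changes over all stages. It recovered 75% and 89% early, 74% and 89% in middle embryos and 87% and 98% late. In the same order 32, 10, 22 and 48 other genes were called. Those genes were not among the ones given a change, so their calls were false. Their share of all calls was not compared with the adjusted p threshold. The alternatives were DESeq2 1.42.0, no TMM scaling, no filter, no block, each embryo left out, at least 2 UMIs of either reporter, cells matched on depth or state, cells thinned to 2000 UMIs, doublets left out, at most 6300 genes, and at least 25 cells a side. Matching on depth (within 1.25-fold) and state together was chosen after seeing the data.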

Additional observations from a re-analysis of the deposited data

Results flagged for a closer look

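In 43 checks for a sample far from the others of its stage, E6.0 replicate 3 stood apart in 2 among the 5 early embryos, and chance alone marks about 1 in 20 such groups. Its log2 ratio of CPM + 1, eGFP-positive over eGFP-negative, was 3.23 for *Foxf1* and 2.54 for *Crb2*, with gaps of 0.817 and 0.756 of the group's range. That embryo had 21 eGFP-positive cells.

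The eGFP difference was tested against itself across stages, and 119 genes passed for late minus early. The genes named as higher there were *Lefty1*, a NODAL antagonist of the midline (5.02, adjusted p = 0.00388), *Foxj1* (4.68, adjusted p = 0.0038), *Ccno* (4.27, adjusted p = 0.00782), *Ppp1r14c*, a phosphatase inhibitor (3.31, adjusted p = 0.00147) and *Sfrp5* (3.25, adjusted p = 0.00795). Those named as lower were *Capn5*, a calpain protease (-1.76, adjusted p = 0.0158), *Mfsd12* (-1.32, adjusted p = 0.0157), *Dusp2*, a MAP kinase phosphatase (-1.22, adjusted p = 0.0185), *Pcdh8*, a protocadherin of paraxial mesoderm (-1.20, adjusted p = 0.0125) and *Blvrb*, a biliverdin reductase (-1.14, adjusted p = 0.000482). The *Foxj1* difference was -5.09 early and -0.40 late, and that of *Ccno* -4.15 and 0.12. *Lefty1* was higher on the eGFP-positive side of late E7.5 replicate 2 (7.19 against 1.93 CPM) and lower in E7.75 replicates 1 and 2 (4.92 against 18.8 and 0.0786 against 0.12 CPM).

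Between the Ai14-positive and the Ai14-negative split, 68 genes differed. *Lrrn4* (0.69, adjusted p = 0.0363) and *Gpc3* (0.50, adjusted p = 0.0476) had the larger difference in Ai14-positive cells. The genes named in the other direction were *Nek5*, a kinase gene (-5.15, adjusted p = 0.0382; 1 UMI in all Ai14-positive eGFP-positive sums, in E7.75 replicate 2), *Gm872* (-3.11, adjusted p = 0.0201), *Ccdc164* (-3.01, adjusted p = 0.0292), a subunit of the ciliary dynein regulator, *Fam183b* (-2.77, adjusted p = 0.00525), expressed in ciliated cells, and *Odf3b* (-2.68, adjusted p = 0.0138).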

How the results depend on the processing

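Counts of genes called are given in the order all stages, early, middle, late, late minus early, Ai14-positive minus Ai14-negative, and 2 or more minus 1 eGFP UMI. As reported they were 1680, 671, 514, 688, 119, 68 and 581. Alternatives that are not named here for a count left it within 1.5 times of that value. DESeq2 called 260 middle, 180 late, 49 late minus early, 33 for the Ai14 difference and 194 for the UMI classes. Without a filter on low counts the last 3 were 309, 246 and 995. With at least 2 eGFP UMIs 369 early and 1184 late genes and 10 for the Ai14 difference were called. With at least 2 Ai14 UMIs the counts were 498, 53, 120, 448, 47 and, for the UMI classes, 276. Depth matching gave 1116 over all stages and 76 late minus early. Thinning to 2000 UMIs, with the sides still set by the full counts, gave 469, 48, 69, 244, 16, 33 and 109. With the reporters read again after thinning, the eGFP share of Ai14-positive minus Ai14-negative cells went from 24.4 to 1.07 percentage points. State matching gave 243, 3, 6, 200, 9 and 3, and depth and state matching together, chosen after seeing the data, 301, 11, 10, 253, 11 and 9. Leaving doublets out gave 128 for the Ai14 difference. The causes were not tested, but thinning and matching also leave fewer UMIs or cells.

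With each embryo left out in turn the counts ran from 1085 to 1761, 352 to 693, 65 to 534, 109 to 776, 9 to 141, 22 to 113 and 315 to 710. The log2 ratio of median UMIs ran from 0.25 to 0.27 (0.26 with all 10), and the share difference from 22.6 to 26.4 percentage points. With no replicate block, so with the pairing of the sides ignored, edgeR called 35, 0, 0, 0, 0, 0 and 0 genes (1067, 835, 277, 94, 160, 334 and 357 at an unadjusted p under 0.05).

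Of 264 differences of named genes, 171 stayed on their side of the threshold by DESeq2 with 79 lost, 13 without the block with most of the others lost, 90 with state matching with 119 lost, and 209 to 257 with an embryo left out with 5 to 37 lost and none reversed. Over all stages the sign turned by DESeq2 for *Myh6* (-0.39), *Sfrp5* (-0.22) and *Hba-a1* (0.37). It turned without the block for *Myh6* (-0.015) and *Myh7* (-0.026), with at least 2 Ai14 UMIs for *Zeb2* (-0.030) and *Kdr* (-0.034), and with thinning for *Zeb2* (-0.056) and *Cxcr4* (-0.15). State matching turned *Pdgfrb* (-0.0083), *Zeb2* (-0.0027), *Kdr* (-0.043), *Wnt5a* (-0.042), *Cdh11* (-0.039) and, for the Ai14 difference, *Fam183b* (0.10). Depth and state matching turned *Zeb2* (-0.030), *Kdr* (-0.066), *Cdh11* (-0.020) and *Hbb-y* (0.16 over all stages and 0.16 late), and at least 2 eGFP UMIs turned *Dll1* late minus early (0.26). The eGFP-positive sums of the early embryos came from 21 to 256 cells and that of E7.75 replicate 1 from 63 cells of low depth, which limits what each can show.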
